A study of Homo sapiens with 8 samples.

Results

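The genes described here are 10 members of the machinery that carries a cell from G1 into S phase: the D-type cyclins CCND2 and CCND3, their kinases CDK4 and CDK6, the E-type cyclins CCNE1 and CCNE2, the CDK inhibitor CDKN1B (p27), the retinoblastoma gene RB1 and the activator E2F genes E2F1 and E2F2. They were chosen by name from the 57189 genes in the count files, and all 10 were among the 13280 genes with enough reads to be tested. RNA came from the human T-cell acute lymphoblastic leukemia (T-ALL) lines CUTLL1 (written CUTTL1 in the labels) and TIB153, each treated with PKF118-310, a small-molecule antagonist of the β-catenin/TCF complex, or left as control. No cells were transfected, all were grown in RPMI with serum, and the concentration and time of treatment are not in the labels. Each of the 4 groups, CUTLL1 PKF118-310, CUTLL1 control, TIB153 PKF118-310 and TIB153 control, was 1 library sequenced in 2 lanes, so a value within a line has counting error only and no replicate check, and each line is 1 established culture.

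In G1, mitogen signals raise D-type cyclins, which bind CDK4 or CDK6 and begin to phosphorylate the RB protein. Phosphorylated RB releases E2F transcription factors, and these switch on the E-type cyclins, E2F genes themselves and the enzymes and licensing factors of DNA replication. Cyclin E with CDK2 then completes the inactivation of RB, while p27 and related inhibitors hold the kinases back. Immature T cells rely chiefly on cyclin D3 and CDK6, and lesions of this pathway, of the INK4 inhibitor genes above all, are common in T-ALL.

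Library totals ranged from 7609427 to 8140391 counts, and the lanes of each library differed by no more than sampling noise (chi-square per degree of freedom between 0.99 and 1.017). Lanes were therefore summed. Levels are given as CPM, counts scaled to library size with factors from the trimmed mean of M-values (TMM), and brackets hold 95% counting intervals. The 8 T-lineage markers summed to between 2167 and 2593 CPM in the 4 libraries, whereas the markers of myeloid, erythroid and epithelial cells summed to under 1 CPM. MS4A1, which defines B cells, had 0 counts in the 4 libraries, which allows up to 0.406 CPM, although CD79A reached 104 CPM in TIB153 with PKF118-310, and the fibroblast genes COL1A1 and COL1A2 summed to between 2.50 and 4.95 CPM. Mitochondrial genes took 3.78% of counts in CUTLL1 with PKF118-310 against 4.18% in CUTLL1 control, and 5.06% in TIB153 with PKF118-310 against 4.01% in TIB153 control; their part in the results below was not tested.

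The first question was how strongly each gene was expressed. CDK6 carried the most reads of the 10 in every library, with 854 CPM in CUTLL1 with PKF118-310, 1096 CPM in CUTLL1 control, 701 CPM in TIB153 with PKF118-310 and 1129 CPM in TIB153 control. Levels of different genes were compared per kilobase of exonic length, with the exons of all annotated transcripts merged. These lengths ran to 12260 bases for CDK6 and 3168 for CDK4, and the transcripts in use were not measured. Counting intervals leave this out, so the order of genes at close levels is uncertain. The levels of CDK4 and CCNE2 may also hold reads of genes on the opposite strand, which share 43.2% and 37.1% of their exonic bases. In CUTLL1 control the order was CDK6 (89.4 CPM per kb), CDK4 (82.7), CCND3 (79.0), E2F1 (44.0), E2F2 (37.0), CDKN1B (35.5), RB1 (26.8), CCNE2 (15.3), CCND2 (8.75) and CCNE1 (4.19). The counting intervals of CDK4 and CCND3 overlapped there, as did those of E2F2 and CDKN1B.

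In TIB153 control, RB1 stood first at 97.8 CPM per kb (95.1 to 100.6), ahead of CDK6 at 92.1 CPM per kb (90.1 to 94.0). CDK4 (66.6) and CCND3 (63.7) followed with overlapping intervals, then E2F1 (35.2), E2F2 (23.0), CDKN1B (17.1), CCNE2 (9.63), CCNE1 (5.16) and CCND2 (0.382 CPM per kb). CCND1, the cyclin D of many solid tumors, had between 2 and 5 counts in the 4 libraries and was not tested. CCND3 was thus the most abundant D-type cyclin gene per kilobase in both control libraries. The panels of levels by library show these differences gene by gene.

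**Figure D1:**
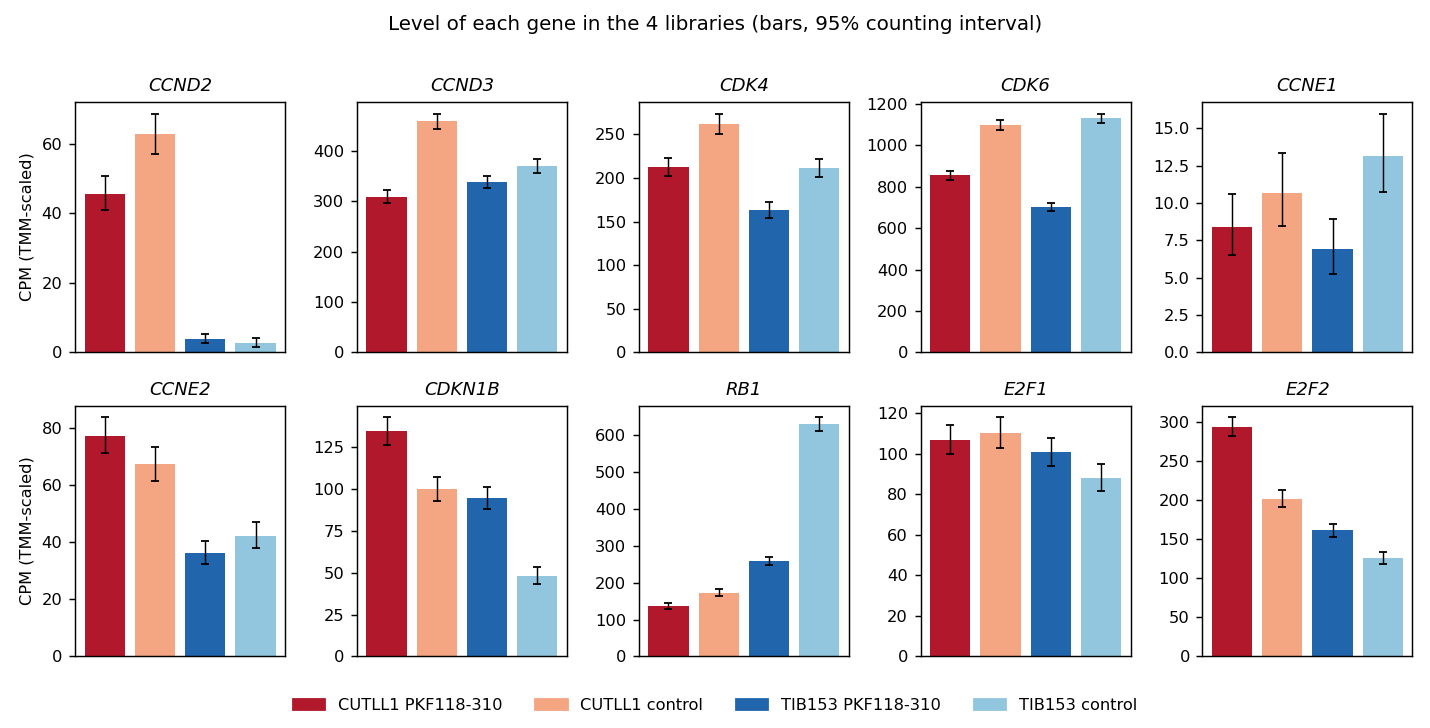
Level of each of the 10 genes (y axis, TMM-scaled CPM from 0, a scale of its own per panel) in CUTLL1 PKF118-310, CUTLL1 control, TIB153 PKF118-310 and TIB153 control, from left to right; each bar is 1 library and error bars are 95% counting intervals. RB1 lies highest in TIB153 control (631 CPM), CCND2 is far higher in the CUTLL1 bars (45.6 and 62.6 CPM) than in the TIB153 bars (3.82 and 2.74 CPM), and the CDKN1B and E2F2 bars are taller with PKF118-310 in both lines.

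The 2 control libraries were then compared with each other, CUTLL1 over TIB153, to describe the lines before treatment. This is a comparison of 1 library with 1 library, without a test. Of the 10 genes, 7 were higher in CUTLL1 control beyond counting error (27.6% of all genes tested were) and 1, RB1, was lower (27.8% of all genes). At a limit of 2-fold, CCND2 and CDKN1B were higher, where 6.12% of all genes were, and RB1 was lower, where 9.45% of all genes were.

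Cyclin D2 separated the lines most. CCND2 had 62.6 CPM (57.1 to 68.6) in CUTLL1 control and 2.74 CPM (1.69 to 4.18) in TIB153 control, which rested on 463 and 21 counts, a 22.4-fold difference (the log2 ratio's interval ran from 3.89 to 5.22). RB1 had 173 CPM in CUTLL1 control and 631 CPM in TIB153 control and was 3.65-fold lower in CUTLL1 (log2 ratio −1.87, interval −1.96 to −1.78). CDKN1B, at 99.8 CPM in CUTLL1 control against 48.1 CPM in TIB153 control, was 2.08-fold higher in CUTLL1.

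The remaining genes lay closer together. E2F2 had 202 CPM in CUTLL1 control and 126 CPM in TIB153 control (1.60-fold), and CCNE2 had 67.2 and 42.3 CPM in the same order (1.59-fold). CCND3, CDK4 and E2F1 were between 1.24-fold and 1.25-fold higher in CUTLL1, with log2 ratios from 0.31 to 0.32. CDK6 (log2 ratio −0.042, interval −0.086 to 0.002) and CCNE1 (−0.30, interval −0.74 to 0.14) showed no difference detectable at this depth.

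**Figure D2:**
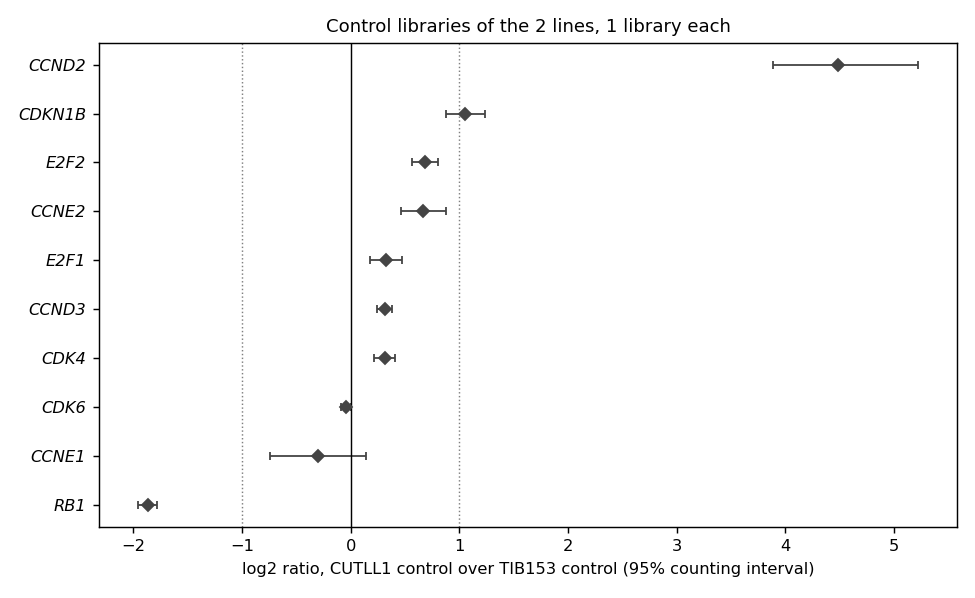
Log2 ratio of CUTLL1 control over TIB153 control (x axis) for the 10 genes, ordered from highest to lowest, with 95% counting intervals and 1 library per line; dotted lines mark 2-fold. CCND2 lies far to the right at 22.4-fold, CDKN1B just beyond the 2-fold line, and RB1 alone lies beyond it on the left (−1.87).

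The next comparison asked how the genes responded to PKF118-310. Across both lines, CDKN1B and E2F2 rose and CDK6 fell at an edgeR adjusted p under 0.05 (quasi-likelihood test with line as a block, n = 2 lines). This was 2 of 10 genes rising, where 6.11% of all genes tested rose, and 1 of 10 falling, where 6.78% of all genes fell, so the members' shares are those of so few genes that nothing is read from them. Of all calls 47.4% were rises, or 60.3% with scaling by total counts alone, which moved the median of all genes by 0.057 on the log2 scale, and the 3 calls among the members held with either scaling. These p-values lean on a spread pooled over genes, since only 1 residual degree of freedom was left. In bulk RNA, fewer cells expressing a gene and less RNA per cell cannot be told apart. The treated-to-control ratios use the same control libraries as the comparison of the lines above.

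Within CUTLL1, 3 of the 10 genes were higher beyond counting error (CCNE2, CDKN1B and E2F2; 23.3% of all genes) and 5 were lower (CCND2, CCND3, CDK4, CDK6 and RB1; 23.9% of all genes). Within TIB153, 3 were higher (CDKN1B, E2F1 and E2F2; 25.2% of all genes) and 5 were lower (CCND3, CDK4, CDK6, CCNE1 and RB1; 28.7% of all genes). In CUTLL1 none of the 10 reached 2-fold in either direction, as 4.8% of all genes did upward and 2.21% downward. In TIB153 RB1 alone did so, downward, as did 2.12% of all genes, and none did so upward, against 5.47% of all genes.

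**Figure D3:**
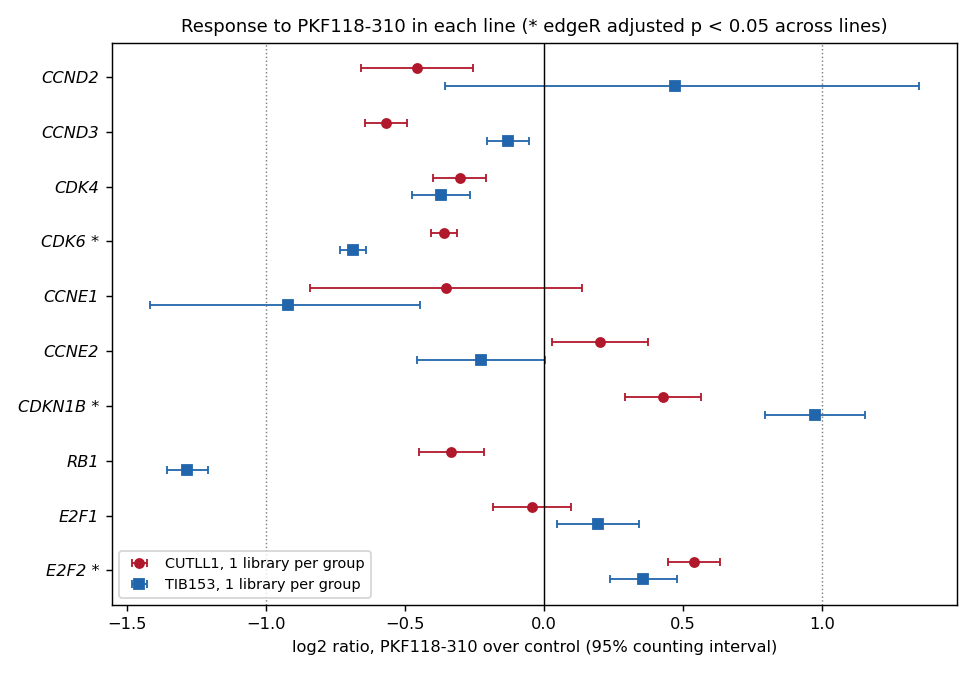
Log2 ratio of PKF118-310 over control (x axis) for each gene, with circles for CUTLL1, squares for TIB153, 95% counting intervals, 1 library per group and dotted lines at 2-fold; an asterisk marks genes called across both lines by edgeR. CDKN1B and E2F2 lie right of 0 and CDK6 left of 0 in both lines, and RB1 lies near −0.33 in CUTLL1 but at −1.28 in TIB153.

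Neither D-type cyclin passed the test across lines, and both were lower with PKF118-310 in CUTLL1. CCND3, which encodes the cyclin D of developing T cells, had 309 CPM in CUTLL1 with PKF118-310 against 459 CPM in CUTLL1 control, and 338 CPM in TIB153 with PKF118-310 against 370 CPM in TIB153 control. The log2 ratio was −0.57 (−0.64 to −0.49) in CUTLL1 and −0.13 (−0.20 to −0.053) in TIB153, and across lines the change of −0.35 ± 0.14 (SE, n = 2 lines) did not pass the test (edgeR adjusted p = 0.112). CCND3 on chromosome 6 (41934933 to 42050357, hg38) had lower CPM than its control in both lines, but its ratio in TIB153 was −0.066 with scaling by total counts, where the interval no longer left out no change, and −0.060 from lane 2 alone. The change across lines passed only when genes with few reads were kept in the fit (edgeR adjusted p = 0.0401).

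CCND2, a cyclin D induced by growth signals in lymphocytes, had 45.6 CPM in CUTLL1 with PKF118-310 against 62.6 CPM in CUTLL1 control, and 3.82 CPM in TIB153 with PKF118-310 against 2.74 CPM in TIB153 control. Its log2 ratio in CUTLL1 was −0.46 (−0.66 to −0.26), but the lanes differed: it was −0.16 from lane 2 alone and −0.76 from lane 1 alone. In TIB153 the 32 and 21 counts left a change undetectable at this depth (0.47, interval −0.36 to 1.35). CCND2 (chromosome 12, 4273772 to 4305350) has 13.8% of its exonic bases inside exons of another gene on its strand, AC008012.1. Reads from those bases may not be told apart, and how they were counted is not stated.

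The kinase genes were lower in both lines. CDK6, on chromosome 7 (92604921 to 92836594), had 6836 counts in CUTLL1 with PKF118-310 against 8104 in CUTLL1 control, and 5870 counts in TIB153 with PKF118-310 against 8666 in TIB153 control. It fell 1.44-fold across lines, a log2 change of −0.52 ± 0.14 (SE, n = 2 lines, edgeR adjusted p = 0.024). Within the lines the log2 ratio was −0.36 (−0.41 to −0.31) for CUTLL1 and −0.69 (interval −0.73 to −0.64) for TIB153. Treated libraries were thus below their controls in both lines.

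CDK4, the partner kinase on chromosome 12 (57747727 to 57756013), had 212 CPM in CUTLL1 with PKF118-310 against 262 CPM in CUTLL1 control, and 163 CPM in TIB153 with PKF118-310 against 211 CPM in TIB153 control. Its log2 ratios were −0.30 (−0.40 to −0.21) in CUTLL1 and −0.37 (−0.48 to −0.27) in TIB153, and the change across lines of −0.34 ± 0.12 missed the threshold (edgeR adjusted p = 0.0848). Of its exonic bases 43.2% lie opposite exons of TSPAN31. Whether reads were counted by strand is not stated, so reads of the 2 genes may not be told apart. From single lanes, its log2 ratio in CUTLL1 was −0.146 and −0.449. CDK2, the kinase that cyclin E activates, had log2 ratios below 0 in both lines and did not pass either (across lines −0.25 ± 0.12, edgeR adjusted p = 0.193).

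The E-type cyclins did not pass the test. CCNE1, on chromosome 19 (29811898 to 29824308), was the least abundant of the 10 per kilobase in CUTLL1. It had 67 counts in CUTLL1 with PKF118-310 against 79 in CUTLL1 control, and 58 counts in TIB153 with PKF118-310 against 101 in TIB153 control. The log2 ratio was −0.35 in CUTLL1, where the interval (−0.84 to 0.14) included no change, and −0.92 (−1.42 to −0.45) in TIB153, with an edgeR adjusted p of 0.161 across lines.

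CCNE2, on chromosome 8 (94879770 to 94896678), had 77.3 CPM in CUTLL1 with PKF118-310 against 67.2 CPM in CUTLL1 control, and 36.2 CPM in TIB153 with PKF118-310 against 42.3 CPM in TIB153 control. The log2 ratio of 0.20 (0.029 to 0.38) in CUTLL1 just left out no change, that of −0.23 (−0.46 to 0.004) in TIB153 just included it (0.016 from lane 1 alone), and 37.1% of its exonic bases lie opposite other genes, INTS8 among them, so its reads are uncertain in the same way as those of CDK4. FBXW7, the ubiquitin ligase subunit that marks cyclin E for degradation, was higher in both lines at 0.41 and 0.53 on the log2 scale (CUTLL1 first), with an edgeR adjusted p of 0.0529.

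CDKN1B rose in both lines. The gene, on chromosome 12 (12715058 to 12722371), encodes p27, which binds and restrains cyclin E and CDK2. It had 134 CPM (127 to 143) in CUTLL1 with PKF118-310 against 99.8 CPM (92.8 to 107) in CUTLL1 control, and 94.5 CPM (88.0 to 101) in TIB153 with PKF118-310 against 48.1 CPM (43.3 to 53.2) in TIB153 control. The rise across lines was 1.62-fold (0.69 ± 0.15 on the log2 scale, edgeR adjusted p = 0.0126), with 0.43 in CUTLL1 and 0.97 in TIB153. It also passed the DESeq2 Wald test (adjusted p = 0.048).

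Other CDK inhibitor genes were read as a list of 6, of which 5 were measured, 2 rose and 0 fell. Of all genes tested, 6.11% rose and 6.78% fell. CDKN1A (p21), known as a p53 target, rose by 2.43 ± 0.37 (edgeR adjusted p = 0.0024). It had 27.5 CPM in CUTLL1 with PKF118-310 against 3.65 CPM in CUTLL1 control, and 4.78 CPM in TIB153 with PKF118-310 against 1.56 CPM in TIB153 control. Its log2 ratio was 2.89 in CUTLL1 and 1.57 (0.65 to 2.68) in TIB153, where the control had 12 counts. CDKN2D, which encodes the INK4 protein p19, rose by 0.53 ± 0.16 (edgeR adjusted p = 0.0486) and passed narrowly. CDKN2C (p18), the most abundant INK4 gene here at 221 CPM in CUTLL1 control and 78.7 CPM in TIB153 control, did not pass (−0.21 ± 0.12, edgeR adjusted p = 0.275). CDKN2A, the locus most often deleted in T-ALL, had 11 counts in CUTLL1 with PKF118-310 against 42 in CUTLL1 control, and 0 counts in both TIB153 libraries, which allows up to 0.358 CPM with PKF118-310 and 0.391 CPM in control. CDKN2B had 0 counts in all 4 libraries. The list's median log2 change was −0.21, beside 0.00 over all genes tested. Only 1 gene of the list rose with DESeq2 size factors, from either lane alone or with the DESeq2 Wald test. At a 5 CPM minimum 0 of the 3 genes measured rose, and CDKN1A was not among those 3, as it passed 5 CPM only in CUTLL1 with PKF118-310. The median lay below 0 while both calls were rises, and from single lanes, where 4 of the 6 genes were measured, it was 0.233 and 0.112.

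Genes of cyclin and p27 turnover were a list of 7, all measured. Of these 0 rose and 3 fell, beside 6.11% and 6.78% of all genes. The 3 encode SCF ubiquitin ligase subunits: SKP2, the receptor known to bring p27 to the ligase for degradation (−0.51 ± 0.13, edgeR adjusted p = 0.0206), the scaffold CUL1 (−0.47 ± 0.14, edgeR adjusted p = 0.04) and the RING subunit RBX1 (−0.56 ± 0.15, edgeR adjusted p = 0.0268). SKP2 had 80.8 CPM in CUTLL1 with PKF118-310 against 116 CPM in CUTLL1 control, and 88.0 CPM in TIB153 with PKF118-310 against 123 CPM in TIB153 control. The adaptor SKP1, also an SCF subunit, did not pass (−0.19 ± 0.14, edgeR adjusted p = 0.414), with log2 ratios of 0.071 in CUTLL1 and −0.443 in TIB153. The SKP2 cofactor CKS1B lay the other way, with log2 ratios of 0.39 in CUTLL1 and 0.31 in TIB153, and did not pass (edgeR adjusted p = 0.0981). The list's median was −0.19. With total-count scaling, and from lane 2 alone, 1 gene of this list rose and 1 fell, and the DESeq2 Wald test called 0 of the 7.

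RB1 was lower in both lines, by unequal amounts. It had 137 CPM (129 to 145) in CUTLL1 with PKF118-310 against 173 CPM (163 to 182) in CUTLL1 control, and 259 CPM (248 to 270) in TIB153 with PKF118-310 against 631 CPM (613 to 649) in TIB153 control. The gene, on chromosome 13 (48303726 to 48599436), was thus 2.44-fold lower in TIB153 (log2 ratio −1.28, interval −1.36 to −1.21) and 1.26-fold lower in CUTLL1 (−0.33, interval −0.45 to −0.22). Levels in TIB153 with PKF118-310 stayed above both CUTLL1 libraries. Across lines the change of −0.82 ± 0.22 did not pass (edgeR adjusted p = 0.0616), and it passed the DESeq2 Wald test (adjusted p = 0.00871) and edgeR without robust estimation (adjusted p = 0.0117).

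E2F1 and E2F2 both carry an E2F word close to their starts, and these sequences are shown because 1 of the pair passed the test and the other did not. E2F words were searched as TTTCCCGC, TTTGGCGC, TTTCGCGC and TTTGCCGC on both strands in the 250 bases before each RefSeq start. They were found in 2 of the 11 windows matched by symbol to 8 of the 10 genes, those of E2F1 and E2F2, and in 2.79% of all 35116 windows. The RefSeq starts are not all the first start of a gene. The windows of RB1 (from 48476200), CDKN1B (from 12717118), CDK4 and CCND3 lie inside their genes, as does the CDK6 window from 92833960. Annotated exons, of any gene on either strand, hold all of a CCND3 window, 244 of the 250 bases for CDKN1B and 211 for CDK4. CCND2 and CCNE2 were not matched. The 60 bases before each start (RefSeq, GRCh38.p14, minus strand, 5′ to 3′; chr20:33686386-33686445 for E2F1 and chr1:23531234-23531293 for E2F2) carry the matches in capitals.
E2F1: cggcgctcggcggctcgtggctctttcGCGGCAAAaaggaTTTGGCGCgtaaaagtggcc
E2F2: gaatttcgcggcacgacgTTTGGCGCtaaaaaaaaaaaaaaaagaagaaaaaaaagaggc
In E2F1 the word TTTGGCGC begins 20 bases before the start, and TTTGCCGC, read on the other strand, lies at 33 bases. The 19 bases next to that start are annotated exon, as the gene reaches 33686404. Most of the word TTTGGCGC in E2F1 therefore lies in exon. In E2F2 the word TTTGGCGC begins 42 bases before the start. The TCF/LEF words CTTTGAT and CTTTGAA and the FOXO word GTAAACA had no match in the 11 windows, CDKN1B and CDK6 included. TCF/LEF and FOXO words occur in 5.94% and 2.98% of all windows. The CDKN1B window covers the bases before its RefSeq start, but it lies inside the annotated gene and is mostly annotated exon. The bases before the first annotated start of CDKN1B (12715058) were not searched. A match is a description of the letters and not a binding site.

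E2F2 rose and E2F1 did not pass the test. E2F2, an activator E2F prominent in lymphoid cells (chromosome 1, 23506430 to 23531220), had 293 CPM (282 to 305) in CUTLL1 with PKF118-310 against 202 CPM (192 to 212) in CUTLL1 control, and 161 CPM (152 to 170) in TIB153 with PKF118-310 against 126 CPM (118 to 134) in TIB153 control. It rose 1.37-fold (0.45 ± 0.12 on the log2 scale, n = 2 lines, edgeR adjusted p = 0.03), but did not pass the DESeq2 Wald test (adjusted p = 0.131). E2F1, the activator best known for driving S phase entry (chromosome 20, 33675683 to 33686404), had 107 CPM in CUTLL1 with PKF118-310 against 110 CPM in CUTLL1 control, and 101 CPM in TIB153 with PKF118-310 against 88.1 CPM in TIB153 control. Its change across lines was 0.076 ± 0.13, with an interval from −0.20 to 0.36 and an edgeR adjusted p of 0.745.

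Among the 10 other RB and E2F family genes, all measured, 0 rose and 2 fell, beside 6.11% and 6.78% of all genes. Both are dimerization partners that most E2F proteins need to bind DNA: TFDP1 (−0.57 ± 0.13, edgeR adjusted p = 0.0134) and TFDP2 (−0.59 ± 0.13, edgeR adjusted p = 0.0113). TFDP2 had 428 CPM in CUTLL1 with PKF118-310 against 698 CPM in CUTLL1 control, and 228 CPM in TIB153 with PKF118-310 against 316 CPM in TIB153 control. The pocket protein gene RBL1 (p107) had a log2 change of −0.39 ± 0.15 without passing (edgeR adjusted p = 0.106), E2F3, the other activator E2F, had 0.17 ± 0.12 (edgeR adjusted p = 0.392), and the repressor E2F8 had 0.47 ± 0.17 (edgeR adjusted p = 0.0931). The list's median was −0.22. In the list of 9 other G1/S cyclins and CDKs, 7 were measured and 0 passed (the edgeR test, with 0 at adjusted p under 0.05 in the DESeq2 Wald test too), and CDC25A, a phosphatase that activates CDK2, came nearest with 0.34 ± 0.12 (edgeR adjusted p = 0.0837).

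The longest list held 22 known E2F target genes of S phase entry, which code for replication and nucleotide supply. All 22 were measured, and 14 fell and 1 rose across lines, beside 6.78% and 6.11% of all genes. Their median log2 change was −0.45, with −0.41 in CUTLL1 and −0.56 in TIB153, beside 0.00 over all genes tested. MCM6, a subunit of the replicative helicase, fell by 0.87 on the log2 scale (SE 0.12, edgeR adjusted p = 0.00133), with 275 CPM in CUTLL1 with PKF118-310 against 497 CPM in CUTLL1 control, and 219 CPM in TIB153 with PKF118-310 against 403 CPM in TIB153 control. POLA1, the catalytic subunit of DNA polymerase α, had the lowest change at −1.14 ± 0.17 (edgeR adjusted p = 0.00224), and the sliding clamp gene PCNA fell as well (−0.66 ± 0.13, edgeR adjusted p = 0.00614). Others that fell included the helicase genes MCM2, MCM3, MCM4, MCM5 and MCM7, the helicase cofactor CDC45, the nucleotide synthesis gene RRM2, the flap endonuclease FEN1, the uracil glycosylase UNG and the histone mRNA-binding gene SLBP, with log2 changes from −0.66 (MCM4) to −0.40 (MCM2).

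The gene that rose was CDT1, which loads the helicase on origins (0.66 ± 0.13, edgeR adjusted p = 0.00595). It had 315 CPM in CUTLL1 with PKF118-310 against 213 CPM in CUTLL1 control, and 263 CPM in TIB153 with PKF118-310 against 157 CPM in TIB153 control. CDC6, the other loading factor, did not pass (−0.17 ± 0.12, edgeR adjusted p = 0.389). Of the 22 genes, 8 fell and 2 rose with total-count scaling, 9 fell at a 5 CPM minimum, 9 fell from lane 1 alone and 11 from lane 2 alone, 6 fell and 1 rose with the DESeq2 Wald test, and 0 fell or rose without the line term.

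Of 10 genes of G2 and mitosis, 0 rose and 1, the checkpoint kinase gene BUB1, fell (−0.58 ± 0.12, edgeR adjusted p = 0.00987), beside 6.11% and 6.78% of all genes. The list's median was 0.040 across lines, with 0.32 in CUTLL1 and −0.20 in TIB153. MKI67, the proliferation marker, had 1680 CPM in CUTLL1 with PKF118-310 against 1133 CPM in CUTLL1 control, and 992 CPM in TIB153 with PKF118-310 against 959 CPM in TIB153 control, and did not pass (edgeR adjusted p = 0.192). The share of cells in each phase was not measured, so its part in these levels was not tested.

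**Figure D4:**
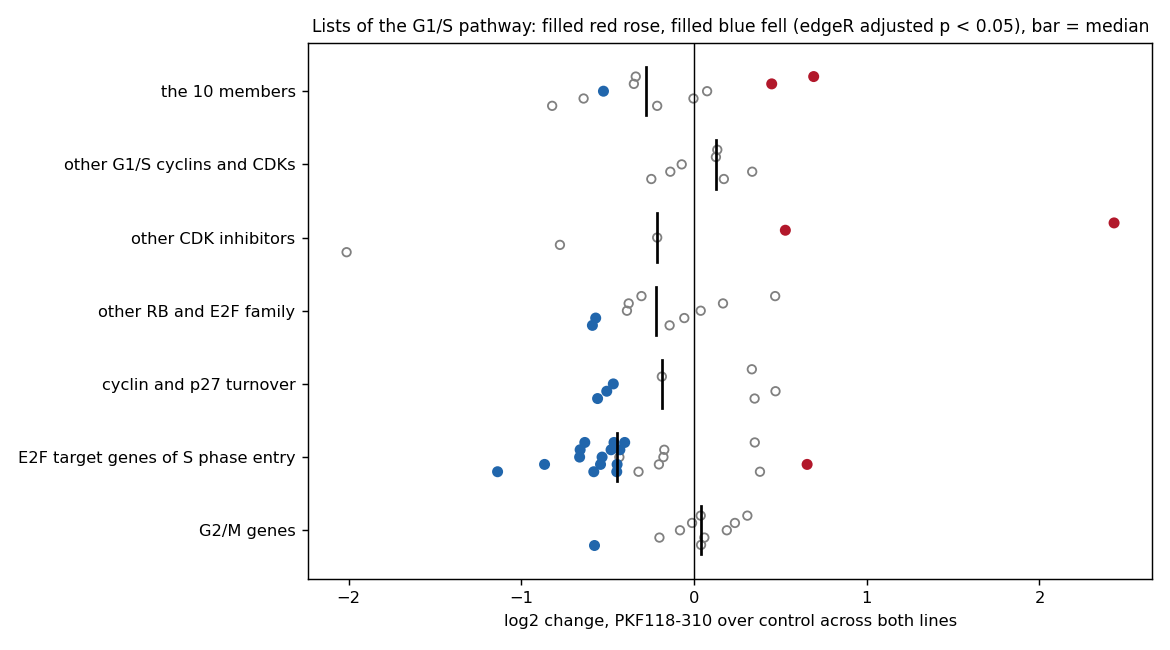
Log2 change across both lines (x axis) for each measured gene of the 10 members and 6 lists of the pathway (rows); filled points passed the edgeR test (red rose, blue fell), open points did not, and the black bar is the list's median. Most points of the S phase list lie left of 0 with a median of −0.45, while the G2 and mitosis genes centre near 0 (0.040).

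How far the 2 lines differed in response was described by the log2 ratio in CUTLL1 minus that in TIB153, with an interval from the counts. With 1 library per group no residual degrees of freedom remain for a test of it. RB1 had the largest difference in size (0.95, interval 0.81 to 1.09), being less reduced in CUTLL1. CCND2 followed at −0.93 with a far wider interval (−1.74 to −0.12), then CCNE1 at 0.57 (−0.090 to 1.23). CDKN1B (−0.55, interval −0.77 to −0.32) lay higher with PKF118-310 to a greater extent in TIB153, CCND3 (−0.44, interval −0.55 to −0.33) was more reduced in CUTLL1, and CDK6 (0.33, interval 0.26 to 0.39) more in TIB153. CDK4 was the gene whose difference stayed nearest to 0 (0.068, interval −0.072 to 0.21).

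For 3 of the genes, those with the most similar pattern over the 4 libraries were sought among 10679 others averaging at least 5 CPM, by the distance between log2 levels centred on each gene's mean. PRDM4 (distance 0.0326), MELTF (0.0372) and M6PR (0.0372) lay nearest to E2F1. E2F1 varied little, from 88.1 CPM in TIB153 control to 110 CPM in CUTLL1 control, and levels were not scaled to each gene's spread. Its neighbours are therefore genes that also varied little. ATRIP (0.0632), YEATS4 (0.0730) and CLK2 (0.0764) lay nearest to CCND3. Those nearest to CCND2 were LINC00461 (0.297), CSMD1 (0.396) and TRAC (0.403). LINC00461 had 7.87 CPM in CUTLL1 with PKF118-310 against 12.0 CPM in CUTLL1 control, and 0.478 CPM in TIB153 with PKF118-310 against 0.261 CPM in TIB153 control. CSMD1 had 8.62 CPM in CUTLL1 with PKF118-310 against 12.6 CPM in CUTLL1 control, and 0.358 CPM in TIB153 with PKF118-310 against 0.391 CPM in TIB153 control. Both reached the 5 CPM average through CUTLL1 alone and lay near the floor of 3 counts in TIB153, so their likeness is set by the line where they are high. TRAC, the constant segment of the T cell receptor α chain, had 115 CPM in CUTLL1 with PKF118-310 against 228 CPM in CUTLL1 control, and 14.0 CPM in TIB153 with PKF118-310 against 8.86 CPM in TIB153 control. With 4 libraries this likeness is a description only.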

How the data were processed

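Poly(A) RNA from 4 libraries was sequenced in 2 lanes each with a stranded mRNA kit. The authors deposited whole-number counts of reads per gene for each lane, not normalized. Per the submitters' processing notes, HISAT2, HTSeq and DESeq2 were used with hg38. Whether reads were counted by strand was not stated there. The authors' 2 tables of their own comparisons hold fold changes and p-values beside 8 count columns of the same lanes, and were not used.

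Lanes were summed per library. Genes were filtered with filterByExpr and scaled by TMM (edgeR 4.0.16, limma 3.58.1, R 4.3.3). Treated and control libraries were compared across lines with edgeR's robust quasi-likelihood test, cell line as a block and Benjamini-Hochberg adjustment over 13280 genes. The median prior degrees of freedom were 13 against 1 residual. Log2 ratios within a line used a pseudocount of 0.5 counts and exact binomial intervals, and levels exact Poisson intervals, all at 95% and covering counting error only. A count of 0 allows up to 3 counts. Per library, 3 counts lay between 0.358 and 0.406 CPM.

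Gene positions matched GENCODE release 29 for 99.7% of genes, which gave exonic lengths. Promoter windows came from RefSeq. The fit was tested on simulated data with the same spread for all genes, no difference between lines and the same response in both. How it performs for genes whose level or response differs between lines was not tested. Alternatives were other scaling and filters, DESeq2 1.42.0, a fit without robust estimation, without the line term, with each lane alone and a pseudocount of 2. Named genes were the 10 members, genes of the 6 lists that passed, and others fixed by name with the lists. Members and lists were chosen with earlier results of these data known. CDC25A, CKS1B, SKP1, RBL1, CDKN2A, CDKN2B and MKI67 were named after their values were seen, and the promoter of E2F1, which did not pass the test, was added then too. Some genes of the lists and markers are counted but not reported here by name.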

Additional observations from a re-analysis of the deposited data

Results flagged for a closer look

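In 3 of the 10 genes the log2 ratios of PKF118-310 over control had opposite signs in the 2 lines, and the differences between lines were not tested. For CCND2 the difference, CUTLL1 minus TIB153, was −0.93 (−0.46 in CUTLL1 and 0.47 in TIB153, the second from 32 and 21 counts, and 0.001 from lane 1 alone). For CCNE2 it was 0.43 (0.20 and −0.23), with 0.016 in TIB153 from lane 1 alone. For E2F1 it was −0.24 (−0.042 and 0.195), its interval in CUTLL1 included no change, and its ratio there was 0.005 with total counts only and 0.047 from lane 2 alone.

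Of the other pathway genes fixed by name, 3 had opposite signs. CCNA2, the cyclin of S phase, differed by 0.45 (0.15 in CUTLL1 and −0.295 in TIB153). The pocket protein gene RBL2 (p130) differed by −0.62 (−0.61 and 0.006, the second with an interval of −0.135 to 0.148). E2F4, an E2F that works mainly with RBL2 in resting cells, differed by −0.26 (−0.185 and 0.076, the second with an interval of −0.053 to 0.205). None of these differences was tested.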

How the results depend on the processing

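Of the 3 calls across lines, those of CDKN1B and CDK6 held under every other setting that kept cell line in the model, and that of E2F2 under all of these but the DESeq2 Wald test, with which 1 of the 10 genes rose and 2 fell (CDK6 and RB1). RB1 joined CDK6, giving 2 falling genes, without robust estimation and with either lane alone, and RB1 and CCND3 did, giving 3, with no filter on low counts. The cause was not tested. With each lane left out in turn, the range was 2 to 2 rising and 2 to 2 falling members, 588 to 703 rising and 606 to 750 falling genes of all. DESeq2 called 200 rising and 258 falling genes of all, against 812 and 900 in edgeR, and scaling by total counts gave 560 falling. In the comparison of controls, scaling by total counts gave 2 lower genes (RB1 and CDK6).

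The pairing of treated with control libraries by line was part of the main model. With no replicate block, that is without the line term, edgeR called 0 members and 0 genes of all in either direction (889 genes and 1 member at an unadjusted p under 0.05), so the calls rest on that block. The log2 changes stayed at 0.63 for CDKN1B, 0.47 for E2F2 and −0.52 for CDK6. Shared lane numbers pair nothing further.

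Directions of genes near 0 turned: CCNE2, at −0.003, was at 0.053 with total counts only, 0.023 at a 5 CPM minimum, 0.051 without the block, 0.094 from lane 1 alone and −0.049 from lane 2 alone, and at 0.202 without TIB153 and −0.226 without CUTLL1. CCND2 was at −0.621 from lane 1 alone, 0.052 from lane 2 alone, −0.457 without TIB153 and 0.471 without CUTLL1. E2F1 was at −0.042 without TIB153 and 0.195 without CUTLL1. Depth limited CCND2 in TIB153 (32 counts with PKF118-310 and 21 in control).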
